A study of Homo sapiens with 24 samples.

Results

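The genes described here are 10 genes linked to FOXO transcription factors and to quiescence, the reversible resting state of a cell. They are FOXO1, FOXO3, IRS2, PIK3IP1, CCNG2, RBL2, TXNIP, PINK1, KLF6 and CITED2. They were chosen by name, with earlier results of these data known. All 10 are among the 12165 genes measured by a probe set with a single gene symbol. The probe set with the highest mean level stands for a gene. The data are 24 one-colour Affymetrix HT U133 arrays (A set) of human acute myeloid leukemia cells, from the 4 established lines MOLM-14, KG-1, HL-60 and U937. Cells of every line stayed for 24 h in 4 µM R406 or in DMSO, its solvent, and each of the 8 groups of line and treatment has 3 arrays. R406 is a kinase inhibitor directed at the tyrosine kinase SYK, and it also acts on other kinases. The dose is in µM in the treatment protocol and in mM in the series design text. All arrays of a line share that line as their source.

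FOXO proteins are transcription factors held in the cytoplasm when the kinase AKT phosphorylates them downstream of PI3K, the lipid kinase that growth factor receptors switch on. When that signal is low they move into the nucleus and act on genes of cell cycle arrest, stress resistance, metabolism and autophagy, and on genes that feed back on PI3K. In blood formation, FOXO proteins are known for keeping stem cells quiescent, and in acute myeloid leukemia they have been linked both to arrest and to survival of leukemic cells. The arrays read transcript levels and not the phosphorylation or the location of the FOXO proteins.

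For each gene, 2 questions were asked, whether R406 cells had more or less transcript than DMSO cells of the same line, and whether that effect was alike in the 4 lines. Values are intensities in arbitrary units made by the authors with RMA. Log2 changes are the mean log2(intensity + 1) of R406 arrays less that of DMSO arrays, with the standard error (SE) of limma, which uses 1 variance per gene for all 8 groups. Adding 1 shrinks the log2 changes of dim genes. A gene was called where limma's Benjamini-Hochberg adjusted p over all 12165 genes was under 0.05. Whether the replicates were grown as separate cultures is not stated in the labels, and the p-values then cover only the spread among these arrays, which may be technical. In bulk RNA, fewer cells of a kind and less RNA per cell cannot be told apart.

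The array medians lay between 19.1 and 21.4. KG-1 R406 replicate 2 stood furthest from its group, with a root mean square deviation of 0.18 on the log2 scale, against 0.088 to 0.16 for the remaining arrays. The log2 ratio of the 3' to the 5' probe sets of ACTB, a measure of RNA integrity, was 0.34 higher under R406 in MOLM-14, 0.12 higher in KG-1 and 0.13 lower in HL-60 (2-sided exact permutation p = 0.1 each, the smallest that 3 against 3 arrays allow), and in U937 the difference was -0.039 (exact p = 0.6). The same ratio of GAPDH was 0.078 higher under R406 in MOLM-14 and 0.10 higher in KG-1 (exact permutation p = 0.1 each). For GAPDH the difference was -0.011 in HL-60 (exact permutation p = 0.9) and -0.0058 in U937. The levels of lineage markers bear on what the lines are. CD34, a stem and progenitor marker, averaged 999.7 in KG-1 R406 cells and 613 in KG-1 DMSO cells, against at most 18.1 in any group of the other lines. MPO, a granule enzyme of promyelocytes, averaged 4981 in HL-60 R406 cells and 6416 in HL-60 DMSO cells, against at most 69.2 in any other group. Other genes of the promyelocytic list were not highest in HL-60. In DMSO cells CTSG averaged 6414 in U937 and 3285 in MOLM-14, against 817 in HL-60. ELANE averaged 2944, 3034 and 2642 and AZU1 186, 792 and 160 in these lines. PRTN3 and CEBPE were, like MPO, highest in HL-60 among DMSO cells. CD14, a monocyte marker, averaged 7.80 and 7.57 in R406 cells of MOLM-14 and U937, against 7.20 and 7.40 in their DMSO cells, and it was high in HL-60. In MOLM-14 the monocytic sum was 417 to 443 in R406 arrays, against 359 to 368 in DMSO arrays, with CD86 at 103 in R406 cells and 10.6 in DMSO cells, CSF1R at 74.1 in R406 cells and 17.1 in DMSO cells, and FCGR1A at 211 in R406 cells and 310 in DMSO cells. In U937 the monocytic sum was 180 to 195 in R406 arrays, against 134 to 139 in DMSO arrays. The sum of 5 early myeloblast genes in MOLM-14 was 158 to 212 in R406 arrays, against 54.2 to 57.3 in DMSO arrays. The rise was that of KIT, a progenitor receptor, at 144 in R406 cells and 17.9 in DMSO cells. CD34, PROM1, SPINK2 and BAALC stood at 15.6, 7.76, 9.20 and 4.99 in MOLM-14 R406 cells, against 17.0, 8.08, 7.81 and 5.05 in DMSO cells. In KG-1 the sum of the 5 genes was 2059 to 2568 in R406 arrays, against 1037 to 1178 in DMSO arrays. KIT stood at 974 ± 391 in KG-1 R406 cells and 228 ± 13.8 in KG-1 DMSO cells (SD, n = 3), and SPINK2 at 311 and 236. PROM1 and BAALC were low in KG-1 too, at 9.25 and 6.16 in R406 cells and 8.39 and 5.68 in DMSO cells. In HL-60 the sum of the 5 genes was 54.3 to 60.7 in R406 arrays, against 74.4 to 76.3 in DMSO arrays, with KIT at 18.8 in R406 cells and 37.0 in DMSO cells. Markers of other cell types moved with R406 in KG-1, where the summed intensity of 7 fibroblast and epithelial genes was 132 to 179 in R406 arrays, against 69.0 to 71.9 in DMSO arrays, and that of 5 T and NK cell genes was 518 to 654 in R406 arrays, against 313 to 319 in DMSO arrays. That difference is in NKG7, at 518 in KG-1 R406 cells and 255 in KG-1 DMSO cells, while CD3D stood at 36.2 in R406 cells and 37.8 in DMSO cells. The collagen gene COL3A1 averaged 86.3 ± 25.8 in KG-1 R406 cells and 8.51 ± 0.38 in KG-1 DMSO cells (SD, n = 3). In MOLM-14 the T and NK cell sum was 306 to 340 in R406 arrays, against 174 to 197 in DMSO arrays, most of it from NKG7, and the sum of 6 promyelocytic genes was 4438 to 4792 in R406 arrays, against 7237 to 7836 in DMSO arrays. Of these 6, CEBPE averaged 13.8 in MOLM-14 R406 cells and 12.1 in MOLM-14 DMSO cells, and the other 5, which encode granule proteins, were lower. The sums of 4 erythroid and of 4 B cell genes lay between 34.5 and 58.5 in every group, and none of the listed markers was at 0. The part of RNA integrity and of these markers in the results below was not tested.

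Most of the 10 transcripts were higher under R406 in MOLM-14 and KG-1, and fewer differed in HL-60 and U937. In MOLM-14 all 10 genes were called, where 56.1% of all genes were. There 9 were called higher (31.1% of all genes) and CITED2 was called lower (25%). In KG-1, 9 were called (44.3% of all genes), all of them higher (23.5%, with 20.9% of all genes lower), and CITED2 was not called. In HL-60, 4 were called (15.2% of all genes), CCNG2, PINK1 and KLF6 as higher (7.2%) and TXNIP as lower (7.98%). In U937, 4 were called (11.5% of all genes), TXNIP, CCNG2, PINK1 and KLF6, each as higher (6.1%, with 5.43% of all genes lower). The median log2 fold change of the 10 genes was 1.27 in MOLM-14, 0.78 in KG-1, 0.14 in HL-60 and 0.13 in U937, and that of all genes was 0.068, 0.020, -0.0029 and 0.0029 in these lines.

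**Figure D1:**
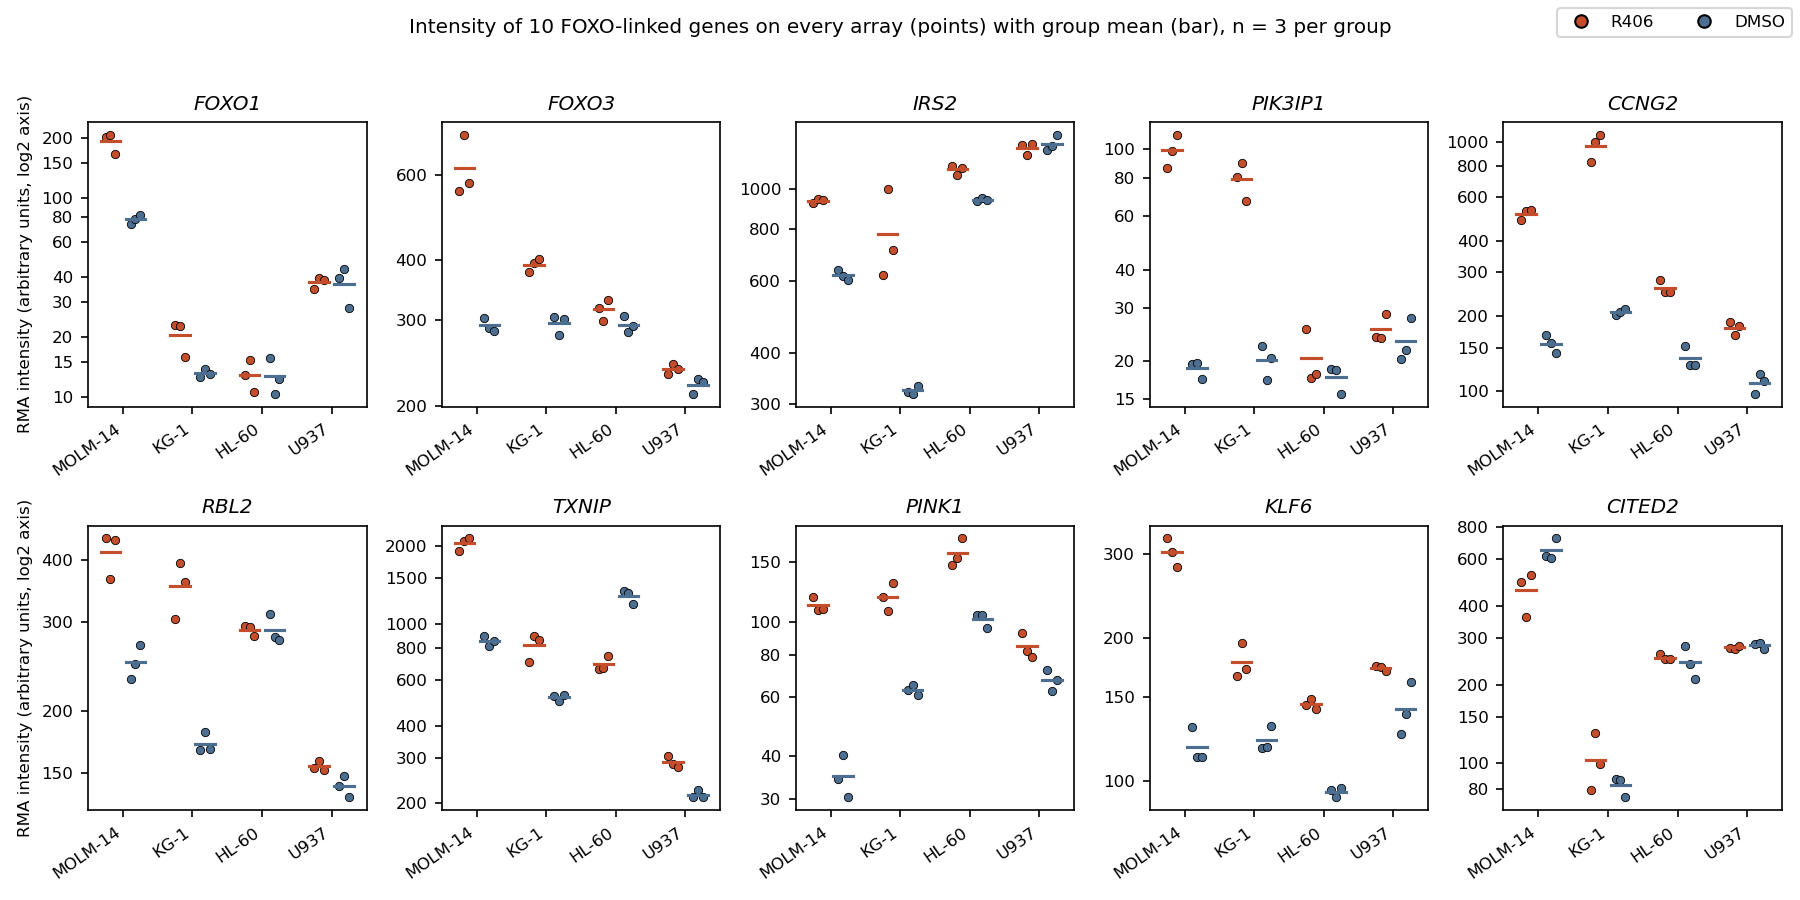
RMA intensity (arbitrary units, log2 axis) of the 10 genes on every array, by line, with R406 left of DMSO in each line, points for arrays and bars for the mean of 3 arrays. The R406 points lie above the DMSO points in MOLM-14 for every gene but CITED2, and TXNIP in HL-60 lies below them.

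Promoter sequences with motif matches are shown for TXNIP, PIK3IP1 and CCNG2, the genes with the opposite direction in 1 line, the largest change in MOLM-14 and the largest in KG-1. The windows are RefSeq promoters of GRCh38.p14, from 250 bases before to 50 bases after an annotated start, on the gene's strand. Windows were present for 9 of the 10 genes, 17 in all, and the promoter of PINK1 was not analysed here. Capitals mark the match to the motif, GTAAACA (written TGTTTAC on the other strand), the core bound by FOXO and other forkhead proteins, or CACGTG, the E-box bound by MYC and related factors. The TXNIP window is chr1:145996530-145996829 on the minus strand, and the match lies 124 bases before the start.
TXNIP: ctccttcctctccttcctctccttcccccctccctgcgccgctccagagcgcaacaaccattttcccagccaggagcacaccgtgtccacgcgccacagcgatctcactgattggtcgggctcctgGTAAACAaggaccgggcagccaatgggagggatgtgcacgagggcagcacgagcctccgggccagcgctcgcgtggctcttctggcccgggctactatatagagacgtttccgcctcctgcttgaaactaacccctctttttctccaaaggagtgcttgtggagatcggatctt
The PIK3IP1 window is chr22:31292439-31292738 on the minus strand, and belongs to the second of its annotated starts, with the match 16 bases after the start.
PIK3IP1: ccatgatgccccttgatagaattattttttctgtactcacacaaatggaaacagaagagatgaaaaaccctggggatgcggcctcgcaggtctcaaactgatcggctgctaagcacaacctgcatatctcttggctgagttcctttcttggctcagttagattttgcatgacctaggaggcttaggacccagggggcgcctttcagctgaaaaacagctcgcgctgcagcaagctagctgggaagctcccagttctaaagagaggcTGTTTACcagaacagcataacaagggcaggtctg
The CCNG2 window is chr4:77156957-77157256 on the plus strand, with the match 30 bases before the start.
CCNG2: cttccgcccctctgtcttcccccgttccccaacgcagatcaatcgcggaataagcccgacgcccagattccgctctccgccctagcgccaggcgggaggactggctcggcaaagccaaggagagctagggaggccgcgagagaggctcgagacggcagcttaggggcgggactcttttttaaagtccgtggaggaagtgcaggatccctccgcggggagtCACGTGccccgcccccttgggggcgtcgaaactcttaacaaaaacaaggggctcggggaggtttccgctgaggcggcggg
Searched on both strands, GTAAACA was in 2 of the 17 windows of these genes, the 2 shown, and in 3.42% of all 35116 RefSeq windows. CACGTG was in 3 of the 17, those of CCNG2, KLF6 and 1 of the windows of CITED2, and in 7.26% of all windows. The forkhead motif and the E-box do not overlap in letters. These matches describe letters in a window and not bound sites.

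FOXO1 and FOXO3 are the transcription factors themselves, and FOXO genes are also known to be raised by FOXO activity. FOXO1 in MOLM-14 had intensities of 167, 202 and 207 in R406 cells, against 74.2, 77.9 and 81.6 in DMSO cells. The groups were well apart, with all R406 arrays above all DMSO arrays, and the mean in R406 cells was 2.46 times that in DMSO cells (1.28 ± 0.16 SE on the log2 scale, limma adjusted p = 3.13e-07). In KG-1, where FOXO1 was dim, it measured 15.8, 22.8 and 22.9 in R406 cells, against 12.6, 13.0 and 13.8 in DMSO cells, a log2 change of 0.59 (limma adjusted p = 0.00396). Here too the groups did not overlap, by a margin of a few units. In HL-60 FOXO1 was dim as well, with values of 10.7, 12.9 and 15.3 in R406 cells, against 10.4, 12.3 and 15.7 in DMSO cells. In U937 it had 34.9, 38.8 and 39.6 in R406 cells, against 27.9, 39.5 and 43.9 in DMSO cells. In both lines the groups overlapped over their range, and the 95% intervals of the log2 change were -0.31 to 0.35 in HL-60 and -0.29 to 0.38 in U937.

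FOXO3 had 556, 576 and 725 in R406 cells, against 286, 289.9 and 303 in DMSO cells in MOLM-14, a log2 change of 1.07 ± 0.078 (limma adjusted p = 5.43e-11). In KG-1 it had 377, 394 and 402 in R406 cells, against 280.0, 302 and 305 in DMSO cells, a smaller log2 change of 0.40 (limma adjusted p = 0.000163). The groups did not overlap in either line. In HL-60 FOXO3 measured 299, 319 and 331 in R406 cells, against 284, 292 and 306 in DMSO cells, with 1 R406 array inside the DMSO range. In U937 it measured 232, 238 and 244 in R406 cells, against 212, 223 and 227 in DMSO cells, close but not overlapping. Neither change was called, with log2 changes of 0.10 and 0.11. The FOXO3 effect was larger in MOLM-14 than in KG-1 by 0.67 (95% interval 0.44 to 0.90, limma adjusted p = 5.79e-05 of the difference). A near-identical FOXO3 pseudogene copy exists in the human genome, and the FOXO3 probe sets may read both.

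IRS2 and PIK3IP1 act on the PI3K signal, IRS2 by passing it on and PIK3IP1 by limiting it. IRS2, an adaptor that couples insulin and growth factor receptors to PI3K, measured 618, 713 and 1003 in R406 cells, against 319, 322 and 333 in DMSO cells in KG-1, a log2 change of 1.23 ± 0.10 (limma adjusted p = 1.33e-09). The highest R406 value is that of KG-1 R406 replicate 2, and without this array the change was 1.03 (adjusted p = 3.45e-11). In MOLM-14 IRS2 had 928, 945 and 946 in R406 cells, against 603, 616 and 635 in DMSO cells, a change of 0.60 (limma adjusted p = 2.76e-05). The arrays of each group lay close together there and the groups were apart. In HL-60 it had 1084, 1131 and 1142 in R406 cells, against 938, 943 and 951 in DMSO cells. All HL-60 R406 arrays were above the DMSO arrays, but the change of 0.24 was not called (limma adjusted p = 0.133). With the shared variance estimated without KG-1 R406 replicate 2 the same change was called (adjusted p = 0.00398). In U937, where IRS2 was highest, its values were 1212, 1282 and 1287 in R406 cells, against 1244, 1277 and 1357 in DMSO cells, with the groups mixed.

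PIK3IP1, a membrane protein that binds and inhibits the catalytic subunit of PI3K, had the largest change of the 10 genes in MOLM-14, with 86.7, 98.4 and 111 in R406 cells, against 17.5, 19.5 and 19.8 in DMSO cells. That is a ratio of means of 5.21 (log2 change 2.32 ± 0.14, limma adjusted p = 2.19e-12). In KG-1 it had 67.5, 80.4 and 90.0 in R406 cells, against 17.4, 20.6 and 22.4 in DMSO cells, a ratio of 3.94 (log2 change 1.92, limma adjusted p = 1.33e-10). The changes in MOLM-14 and KG-1 were not told apart, with a difference of 0.39 (95% interval -0.021 to 0.81, limma adjusted p = 0.141). In HL-60 it had 17.6, 18.2 and 25.5 in R406 cells, against 15.6, 18.8 and 18.9 in DMSO cells, and in U937 23.9, 24.0 and 28.6 in R406 cells, against 20.4, 21.8 and 27.7 in DMSO cells. Groups overlapped in these 2 lines, and the intervals of the log2 change were -0.11 to 0.47 and -0.16 to 0.43. All DMSO groups were near the array median, and PIK3IP1 was the 1 gene of the 10 whose DMSO level was not called in the F test over the 4 lines (limma adjusted p = 0.127). Of the pairs of lines, HL-60 and U937 were called (HL-60 minus U937 -0.37, limma adjusted p = 0.0361).

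CCNG2 and RBL2 belong to cell cycle exit. CCNG2 encodes cyclin G2, an unusual cyclin that is highest in resting cells and is linked to arrest. Its intensities in KG-1 were 831, 995 and 1067 in R406 cells, against 202, 209 and 213 in DMSO cells, a ratio of 4.64 and the largest change of the 10 genes there (log2 change 2.20 ± 0.095, limma adjusted p = 3.43e-14). In MOLM-14 it had 489, 528 and 533 in R406 cells, against 142, 156 and 168 in DMSO cells (log2 change 1.73, limma adjusted p = 3.76e-13). In both lines every R406 array was far above every DMSO array. In HL-60 it had 249, 251 and 280.4 in R406 cells, against 128, 128 and 153 in DMSO cells, a change of 0.93 (limma adjusted p = 2.97e-07). In U937 it had 168, 183 and 189 in R406 cells, against 98.0, 109.9 and 117 in DMSO cells, a change of 0.73 (limma adjusted p = 2.14e-05). The groups were apart in these lines as well, and among all genes ranked by effect CCNG2 stood above 98.4% in MOLM-14, 99.9% in KG-1, 99.4% in HL-60 and 99.5% in U937. The effect was larger in KG-1 than in MOLM-14 by 0.47 (MOLM-14 minus KG-1 -0.47, 95% interval -0.75 to -0.19, limma adjusted p = 0.00891), and HL-60 and U937 were not told apart (difference 0.21, limma adjusted p = 0.503).

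RBL2 encodes p130, the retinoblastoma family protein that predominates in resting cells and is part of the DREAM repressor of cell cycle genes. In KG-1 it measured 305, 362 and 395 in R406 cells, against 167, 168 and 182 in DMSO cells (log2 change 1.03 ± 0.088, limma adjusted p = 1.63e-09), and in MOLM-14 366, 439 and 441 in R406 cells, against 232, 248 and 270.2 in DMSO cells (log2 change 0.73, limma adjusted p = 2.12e-07). Groups did not overlap in either line, and the 2 effects were not told apart (difference -0.30, limma adjusted p = 0.0678). In HL-60 RBL2 measured 282, 293 and 295 in R406 cells, against 277, 281 and 311 in DMSO cells, with the R406 values inside the DMSO range. In U937 it measured 153, 153 and 159 in R406 cells, against 135, 142 and 148 in DMSO cells, a change of 0.13 that was not called although the groups did not overlap.

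TXNIP, PINK1 and KLF6 cover redox and glucose control, mitochondrial quality control and transcription. TXNIP encodes the thioredoxin-interacting protein, which binds thioredoxin, limits glucose uptake and is raised by glucose. In MOLM-14 it had 1919, 2096 and 2146 in R406 cells, against 815, 857 and 895 in DMSO cells (log2 change 1.26 ± 0.081, limma adjusted p = 5.37e-12). In KG-1 it had 707, 865 and 894 in R406 cells, against 499, 522 and 525 in DMSO cells (0.67, limma adjusted p = 3.35e-07). In U937, where its level was the lowest, it had 276, 284 and 305 in R406 cells, against 211, 212 and 224 in DMSO cells (0.42, limma adjusted p = 0.00137). These 3 lines had all R406 arrays above all DMSO arrays. HL-60 went the other way, with 667, 672 and 747 in R406 cells, against 1194, 1312 and 1338 in DMSO cells, a ratio of R406 to DMSO of 0.542 (log2 change -0.88, limma adjusted p = 6.98e-08). Every HL-60 R406 array was far below every DMSO array. The effect in HL-60 differed from that in MOLM-14 (MOLM-14 minus HL-60 2.14, limma adjusted p = 1e-12), in KG-1 (KG-1 minus HL-60 1.55, limma adjusted p = 6.81e-10) and in U937 (HL-60 minus U937 -1.30, limma adjusted p = 7.5e-08). TXNIP was the 1 gene of the 10 called higher in some lines and lower in another, as were 7.27% of all genes.

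The fall of TXNIP was present in all 3 of its probe sets. In HL-60 the other 2 changed by -0.85 (limma adjusted p over all single-symbol probe sets 1.9e-06) and -1.004 (2.13e-05), and in MOLM-14 they rose by 1.11 and 0.91. The monocyte marker CD14 rose in HL-60 as well. It averaged 853 ± 37.0 in HL-60 R406 cells and 279 ± 59.7 in HL-60 DMSO cells (SD, n = 3). FCGR1A, another gene of the monocytic list, went the other way, at 182 in HL-60 R406 cells and 332 in HL-60 DMSO cells. The sum of the 6 measured monocytic genes was 1179 to 1251 in R406 arrays, against 711 to 790 in DMSO arrays, and the sum of 6 promyelocytic genes was 6158 to 6686 in R406 arrays, against 10773 to 11453 in DMSO arrays. Of these 6, the 5 granule protein genes were lower and the transcription factor gene CEBPE higher, at 324 in HL-60 R406 cells and 232 in HL-60 DMSO cells. Their part in the TXNIP result was not tested.

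PINK1 encodes the kinase that marks damaged mitochondria for removal. In MOLM-14, where its DMSO level was the lowest, it had 109, 109 and 118 in R406 cells, against 30.3, 34.3 and 40.5 in DMSO cells (log2 change 1.65 ± 0.097, limma adjusted p = 1.05e-12). In KG-1 it had 107, 118 and 130.0 in R406 cells, against 60.9, 62.9 and 64.9 in DMSO cells (0.90, limma adjusted p = 5.37e-08) and in HL-60 147, 154 and 176 in R406 cells, against 95.7, 105 and 105 in DMSO cells (0.64, limma adjusted p = 5.81e-05). The groups did not overlap in these 3 lines. In U937 the values were 78.9, 82.0 and 92.7 in R406 cells, against 62.6, 67.3 and 72.2 in DMSO cells, not overlapping but close, a change of 0.32 (limma adjusted p = 0.0315). Without U937 R406 replicate 1 the U937 change was 0.26 and was not called (adjusted p = 0.168), and 6 other settings ended the call as well.

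KLF6, a zinc finger transcription factor of the Krüppel-like family with growth-limiting roles, had 281, 302 and 324 in R406 cells, against 112, 113 and 129.6 in DMSO cells in MOLM-14 (log2 change 1.35 ± 0.084, limma adjusted p = 3.56e-12). In HL-60 it had 142, 144 and 149 in R406 cells, against 92.5, 95.6 and 96.9 in DMSO cells (0.61, limma adjusted p = 2.2e-05) and in KG-1 167, 172 and 195 in R406 cells, against 117, 118 and 130.3 in DMSO cells (0.54, limma adjusted p = 1.09e-05). The groups were apart in each of these lines. The KG-1 and HL-60 effects were not told apart (difference -0.064, limma adjusted p = 0.752). In U937 KLF6 had 170.3, 174 and 175 in R406 cells, against 126, 139 and 161 in DMSO cells, with R406 arrays close together and DMSO arrays more spread. The U937 change was 0.29 (limma adjusted p = 0.0263) and was lost in 9 alternative settings, with 0.21 and an adjusted p of 0.177 without U937 DMSO replicate 1. Probe sets without shared transcripts turned its direction, to -0.030.

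CITED2, a co-regulator that binds CBP and p300, competes with HIF1A for them and is needed by blood stem cells, went against the rest in MOLM-14. It had 361, 491 and 524 in R406 cells, against 609, 619 and 721 in DMSO cells, a log2 change of -0.52 ± 0.14 (limma adjusted p = 0.00344). All 3 R406 arrays were below the DMSO arrays. In KG-1 it had 79.4, 99.8 and 130.2 in R406 cells, against 74.4, 86.5 and 87.1 in DMSO cells, with groups that overlapped, and the change of 0.29 was not called (limma adjusted p = 0.108). Its value rests on single arrays there, since it was 0.11 without KG-1 R406 replicate 2 (adjusted p = 0.594) and 0.46 without replicate 1 (adjusted p = 0.0086). In HL-60 it had 249.6, 250.1 and 260.5 in R406 cells, against 211, 239 and 281 in DMSO cells and in U937 273, 276 and 282 in R406 cells, against 273, 286 and 288 in DMSO cells. The groups overlapped in these 2 lines, with intervals of -0.23 to 0.36 and -0.32 to 0.27.

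**Figure D2:**
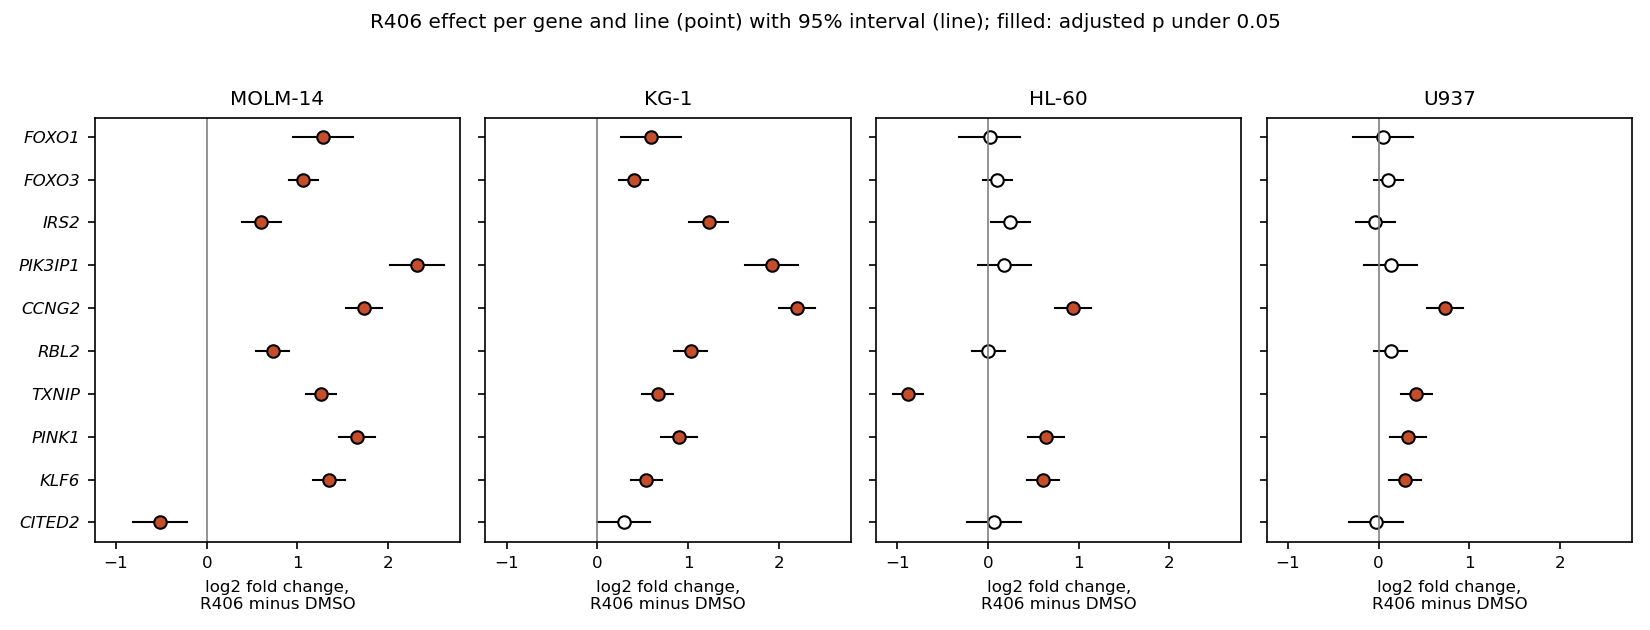
Log2 fold change, R406 minus DMSO, of the 10 genes in each line (point) with the 95% interval from limma (line), filled where the adjusted p over all genes was under 0.05. Filled points are 10 in MOLM-14, 9 in KG-1, 4 in HL-60 and 4 in U937, and CCNG2, PINK1 and KLF6 are filled to the right of 0 in all 4 lines.

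CCNG2, PINK1 and KLF6 were called higher in all 4 lines, which 1.06% of all genes were. The U937 calls of PINK1 and KLF6 were lost when single U937 arrays were left out, as given above, and that of CCNG2 was kept in every setting tried. The second probe sets of PINK1 and KLF6 were not called in U937, with log2 changes of 0.25 and 0.19 (limma adjusted p over the probe sets 0.154 and 0.241). The R406 arrays did not overlap the DMSO arrays for 10 of the 10 genes in MOLM-14 (57.7% of all genes), 9 in KG-1 (49.7%), 5 in HL-60 (32.8%) and 6 in U937 (34%). In the equal-weight mean of the 4 lines 9 genes were called higher, where 29.1% of all genes were, with CCNG2 highest at 1.40 and CITED2 at -0.047 not called. The R406 effect differed between the lines for all 10 genes in limma's moderated F test, which called 54.8% of all genes.

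The lines were set against each other pair by pair. MOLM-14 and HL-60 differed in 9 genes (45.2% of all genes) and MOLM-14 and U937 in 9 (43.8%), MOLM-14 and KG-1 in 8 (33.4%), KG-1 and HL-60 in 6 (35.6%), and KG-1 and U937 in 6 (33.3%). TXNIP was the 1 gene that differed between HL-60 and U937, where 7.23% of all genes did. Between MOLM-14 and KG-1 the effect was higher in MOLM-14 for FOXO1, FOXO3, TXNIP, PINK1 and KLF6 (5 genes, against 15.6% of all genes) and higher in KG-1 for IRS2, CCNG2 and CITED2 (3 genes, against 17.9%). For KLF6 the difference was 0.81 (95% interval 0.56 to 1.06, limma adjusted p = 1.38e-05) and for IRS2 -0.62 (limma adjusted p = 0.00198), each as MOLM-14 minus KG-1. PIK3IP1 and RBL2 missed the call between these lines, with the values above. The 6 comparisons of lines share groups, so they are not independent of each other.

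Without KG-1 R406 replicate 2 the KG-1 call held for each of the 9 genes. The KG-1 log2 changes without it were 0.51 for FOXO1, 0.40 for FOXO3, 0.60 for TXNIP, 1.83 for PIK3IP1 and 2.17 for CCNG2. They were 0.95 for RBL2, 0.97 for PINK1 and 0.47 for KLF6. The FOXO1 value was closest to the threshold (adjusted p = 0.0275).

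In DMSO the level differed between lines for 9 of the 10 genes in the F test, where 68.1% of all genes did. By pairs of lines, the DMSO level differed for 7 genes between MOLM-14 and KG-1 (51.2% of all genes), 6 between MOLM-14 and HL-60 (46%) and 9 between MOLM-14 and U937 (47%). It differed for 7 between KG-1 and HL-60 (48.6%), 8 between KG-1 and U937 (50.9%) and 9 between HL-60 and U937 (48.2%). FOXO1 was highest in MOLM-14, then U937, and lower in KG-1 and HL-60, which were not told apart (KG-1 minus HL-60 0.050, limma adjusted p = 0.830). The span between the highest and the lowest mean was 6.08 times, with the KG-1 and HL-60 means, 13.1 and 12.8, below the lowest array median of 19.1. CITED2 was highest in MOLM-14, with U937 and HL-60 not told apart below it, and lowest in KG-1, a span of 7.86 times. TXNIP was highest in HL-60, then MOLM-14, KG-1 and U937, with each neighbour different from the next and a span of 5.95 times. HL-60, the line in which TXNIP fell, thus had its highest DMSO level, and U937 its lowest.

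The other genes spanned less. IRS2 ran from U937 through HL-60 and MOLM-14 to KG-1 with every step called, a span of 3.98 times. PINK1 was highest in HL-60, with U937 and KG-1 not told apart, and lowest in MOLM-14, a span of 2.90 times. RBL2 was highest in HL-60 and MOLM-14, which were not told apart (limma adjusted p = 0.0536), then KG-1 and U937, a span of 2.05 times. CCNG2 was highest in KG-1, with MOLM-14 and HL-60 not told apart, and lowest in U937, a span of 1.92 times. KLF6 spanned 1.49 times, with U937 highest, KG-1 and MOLM-14 not told apart and HL-60 lowest. FOXO3 spanned 1.34 times, with KG-1, HL-60 and MOLM-14 not told apart and U937 lowest.

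The 10 genes have 25 probe sets in all. Where the probe set that stands for a gene was called, the other probe sets of the gene gave 43 values, of which 40 had the same direction, 34 of them called themselves. The 3 of opposite direction were those of the dimmest KLF6 set in KG-1, HL-60 and U937, which were not called. FOXO1 was smaller in its dimmer set, at 0.42 in MOLM-14 and 0.38 in KG-1. The other FOXO3 sets, from brightest to dimmest, rose by 0.87, 0.41 and 0.48 in MOLM-14, each called. In KG-1 they changed by 0.37, 0.27 and 0.026, of which only the first was called. In HL-60 they stood at -0.048, -0.30 and -0.13, none called, against 0.10 in the set that stands for FOXO3. The second PIK3IP1 set, which is dim, rose by 1.24 in MOLM-14 and by 0.95 in KG-1. The second CITED2 set fell by 0.88 in MOLM-14 (limma adjusted p over the probe sets 1.5e-08) and stood at -0.015 in KG-1. CCNG2 rose in all 3 of its sets, by 1.45 to 1.73 in MOLM-14 and by 2.02 to 2.33 in KG-1. The third KLF6 set, with a mean intensity of 10.4, showed 0.076 in MOLM-14 and -0.12 in KG-1 and was not called in any line, while the second rose by 1.39 in MOLM-14. The 2 brighter KLF6 sets belong to the class whose probes can match more than 1 transcript.

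**Figure D3:**
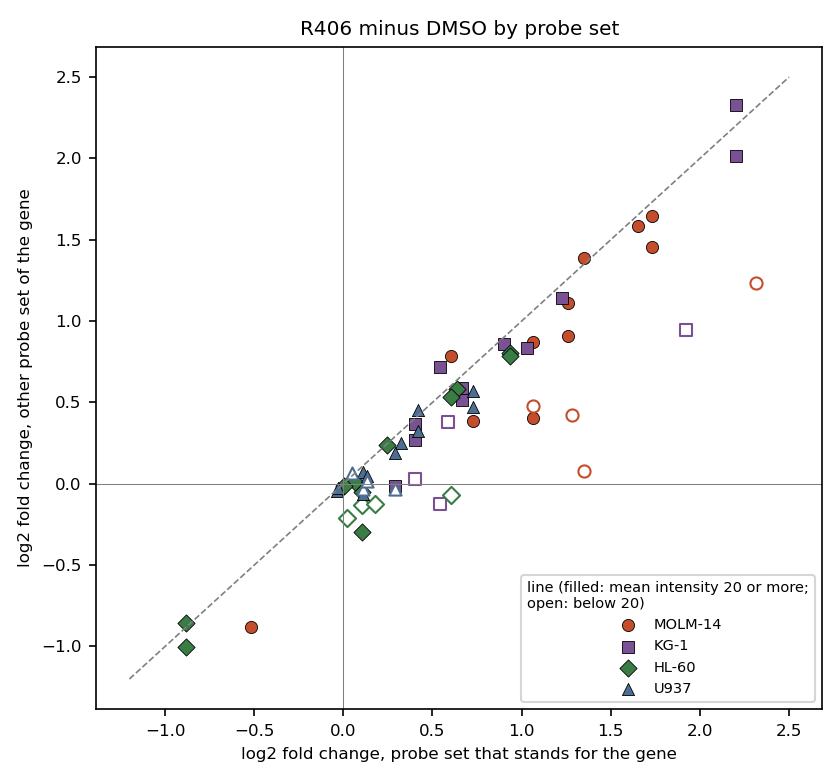
Log2 fold change, R406 minus DMSO, of each other probe set of the 10 genes (vertical) against the probe set that stands for the gene (horizontal), by line, open where the mean intensity over all arrays was below 20, with a dashed line of equality. Most points lie near or below the line at the right, the 2 further TXNIP sets in HL-60 lie at the lower left at -0.85 and -1.004, and the dim KLF6 set in MOLM-14 lies near 0 at 1.35 on the horizontal axis.

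Across the 24 arrays, which share lines and treatments, the levels of the 45 pairs of these genes had Pearson correlations of -0.32 to 0.91, with a median of 0.38. TXNIP and RBL2 had the highest, and CITED2 and CCNG2 the lowest. The 24 points fall into 8 groups, so these values describe lines and treatment together. The genes most alike over the 24 arrays were GTF2F1 for FOXO1 (r = 0.97), KDM3A for FOXO3 (0.96), NDUFB5 for TXNIP (0.97), ADGRE5 for IRS2 (0.95) and H2AC6 for PIK3IP1 (0.97). They were PNRC2 for CCNG2 (0.97), GIT2 for RBL2 (0.97), SAT1 for PINK1 (0.97), CBX7 for KLF6 (0.91) and SOBP for CITED2 (0.97).

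The genes around the FOXO signal were followed in lists of their own, with intensities as mean ± SD of 3 arrays. Of 22 measured PI3K and AKT signalling genes, 10 were called higher and 6 lower in MOLM-14 (median log2 change 0.13, against 0.068 for all genes), 10 and 4 in KG-1 (0.23), 7 and 2 in HL-60 (0.086), and 3 and 4 in U937 (-0.029). Among all genes the shares called higher and lower were 31.1% and 25% in MOLM-14, 23.5% and 20.9% in KG-1, 7.2% and 7.98% in HL-60, and 6.1% and 5.43% in U937. SGK1, an AKT-related kinase that also acts on FOXO proteins, had 302 ± 16.4 in R406 cells, against 38.6 ± 5.92 in DMSO cells in MOLM-14 (log2 change 2.95, limma adjusted p = 2.64e-14), and rose by 1.15 in HL-60. INPP5D, the phosphatase SHIP1 that removes a phosphate from the PI3K product, rose by 0.48 in MOLM-14, 1.05 in KG-1 and 0.32 in HL-60, with 0.021 in U937. AKT1 fell by 0.60 in MOLM-14 (limma adjusted p = 0.000403) and was not called in the other lines. The pseudokinase genes TRIB2 and TRIB3, whose proteins bind AKT, both rose in HL-60, by 1.85 and 0.83. In the other lines TRIB3 fell, by 2.03 in MOLM-14, 0.98 in KG-1 and 0.73 in U937. TRIB2 rose by 0.42 in KG-1, fell by 0.40 in U937 and was not called in MOLM-14 (-0.066).

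Among other genes linked to FOXO, BCL6 rose and CCND2 fell in every line. Of 30 measured, 16 were called higher and 6 lower in MOLM-14 (median 0.45), 8 and 6 in KG-1 (0.023), 3 and 4 in HL-60 (-0.030), and 4 and 2 in U937 (-0.0071). Of all genes, 31.1% were called higher and 25% lower in MOLM-14, and 23.5% and 20.9% in KG-1, where the counts of the list lie near these shares. The shares of all genes were 7.2% higher and 7.98% lower in HL-60, and 6.1% and 5.43% in U937. BCL6, a transcriptional repressor, rose in all 4 lines, by 1.60, 2.05, 0.67 and 0.49 in MOLM-14, KG-1, HL-60 and U937. CAT, catalase, rose by 1.20 in MOLM-14 and 0.81 in KG-1, and MAP1LC3B, the autophagosome protein LC3B, by 1.48 and 0.80. MAP1LC3B also rose by 0.36 in HL-60, and CAT by 0.21 in U937. CDKN1B, the cyclin-dependent kinase inhibitor p27, averaged 467 ± 31.9 in R406 cells, against 276 ± 25.8 in DMSO cells in MOLM-14 (limma adjusted p = 2.6e-08), and rose by 0.82 in KG-1 and 0.26 in U937. FOXO4, a further FOXO factor, was dim, at 15.1 ± 4.30 in R406 cells, against 8.85 ± 0.29 in DMSO cells in MOLM-14, a change of 0.67 (limma adjusted p = 0.000897), and rose by 0.63 in KG-1. CCND2, cyclin D2, fell in every line, by 2.31 in MOLM-14, 0.72 in KG-1, 0.65 in HL-60 and 0.93 in U937. Further genes of the list, named after their values were seen, differed in direction. SOD2 had log2 changes of -0.78 in MOLM-14 and -0.62 in KG-1, and PRDX3 of -0.83 and -0.60. TNFSF10 changed by 1.65 in MOLM-14 and by -1.22 in KG-1. BNIP3, given below, is on this list too and fell in all 4 lines.

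Of the 15 measured genes of a list around the RB family and the DREAM complex, 10 were called lower and 4 higher in MOLM-14 (median -0.42), 7 and 3 in KG-1 (-0.15), 2 and 3 in HL-60 (0.010), and 1 and 1 in U937 (0.035). The list also holds cell cycle genes that are not parts of either, CDK4, CDK6, CCND3, FOXM1, MYBL2 and CCNG1. All of these but CCNG1 were called lower in MOLM-14, so the counts do not describe the complex itself. Of all genes, 25% were called lower and 31.1% higher in MOLM-14, and 20.9% and 23.5% in KG-1. In HL-60 the shares of all genes were 7.98% lower and 7.2% higher. In U937 the list lies near the 5.43% lower and 6.1% higher of all genes. TFDP1, the partner of E2F factors, fell by 1.83 in MOLM-14 and 1.37 in KG-1, MYBL2 fell by 3.01 in MOLM-14, and its log2 change in KG-1 was -1.54. CDK4 had changes of -1.88 and -1.17 in these lines. CCNG1, the cyclin closest to CCNG2, rose by 0.82 in MOLM-14 and 1.28 in KG-1 and was not called in HL-60 (-0.0049) or U937 (0.20), where CCNG2 was called. RB1 rose by 0.50 in MOLM-14 and 0.35 in HL-60. RBL1 was not analysed here.

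Growth and cell cycle genes, 12 measured, gave 11 called lower and 1 higher in MOLM-14 (median -1.79), 9 lower in KG-1 (-0.67), 1 lower and 3 higher in HL-60 (0.29), and 1 lower in U937 (0.13). Called lower among all genes were 25% in MOLM-14, 20.9% in KG-1, 7.98% in HL-60 and 5.43% in U937, and called higher 31.1% in MOLM-14 and 7.2% in HL-60. MYC, the growth-driving transcription factor, fell in all lines, with 382 ± 16.03 in R406 cells, against 3993 ± 135 in DMSO cells in MOLM-14 and 3884 ± 240.3 in R406 cells, against 5977 ± 343 in DMSO cells in HL-60 (log2 changes -3.38 and -0.62). The replication helicase gene MCM7 fell by 2.18 in MOLM-14 and 1.16 in KG-1, and changed by 0.050 and 0.054 in HL-60 and U937, where it was not called. MCM2 fell by 3.11 and 0.81. CCNE2, cyclin E2, fell by 5.01 in MOLM-14 and 0.58 in KG-1 and rose by 0.60 in HL-60.

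Genes around TXNIP gave no single direction. Of 12 measured genes of the thioredoxin, arrestin domain and glucose sensing list, 2 were called higher and 4 lower in MOLM-14 (median -0.11), 3 and 4 in KG-1 (-0.085), and 2 higher in HL-60 (0.035) and 2 lower in U937 (-0.018). All genes had 31.1% higher and 25% lower in MOLM-14, 23.5% and 20.9% in KG-1, 7.2% higher in HL-60 and 5.43% lower in U937. TXN, thioredoxin, averaged 1502 ± 160.3 in R406 cells, against 2418 ± 135 in DMSO cells in MOLM-14, a fall of 0.69 (limma adjusted p = 1.99e-07), and fell by 0.73 in KG-1. In HL-60 and U937 its log2 changes were -0.12 and -0.034. MLXIP, the glucose-responsive factor MondoA that acts on TXNIP, rose by 0.92 in MOLM-14 and 0.74 in KG-1. Its change in HL-60 was 0.040 and was not called. SLC2A3, the glucose transporter GLUT3, averaged 212 ± 27.2 in R406 cells, against 87.3 ± 10.6 in DMSO cells in HL-60 (log2 change 1.27, limma adjusted p = 1.37e-05), the line in which TXNIP fell, and fell by 0.84 in KG-1. SLC2A1, the transporter GLUT1, fell by 0.74 in MOLM-14, 1.00 in KG-1 and 0.39 in U937, with -0.082 in HL-60. DDIT4, an inhibitor of the growth kinase mTORC1, fell by 1.10 in MOLM-14 and 0.64 in U937 and rose by 1.24 in KG-1 and 0.46 in HL-60. ARRDC4 was not analysed here.

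The mitophagy list around PINK1 was mixed. Of 14 measured genes, 8 were called higher and 5 lower in MOLM-14 (median 0.24), 6 and 5 in KG-1 (0.26), 3 and 1 in HL-60 (0.021), and 3 and 3 in U937 (0.053). The shares of all genes were 31.1% higher and 25% lower in MOLM-14, 23.5% and 20.9% in KG-1, 7.2% and 7.98% in HL-60, and 6.1% and 5.43% in U937. BNIP3, a mitophagy receptor chosen after its values were seen, fell in all 4 lines, by 1.69 in MOLM-14, 0.76 in KG-1, 0.38 in HL-60 and 0.37 in U937. The autophagy receptor genes SQSTM1 and NBR1 rose in MOLM-14 by 1.99 and 1.20, in KG-1 by 0.81 and 1.02, and in HL-60 by 0.62 and 0.26. In U937 NBR1 rose by 0.50 and SQSTM1 was not called (0.23). BNIP3L, a mitophagy receptor of the outer membrane, averaged 1514 ± 37.4 in R406 cells, against 411 ± 23.9 in DMSO cells in MOLM-14 and rose by 1.88, with 0.72 in KG-1. VDAC1, the outer membrane channel, fell by 1.78 in MOLM-14 and 1.39 in KG-1.

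Of 17 measured KLF and SP factors, 6 were called higher and 1 lower in MOLM-14 (median 0.091), 5 and 1 in KG-1 (0.059), 2 higher in HL-60 (0.013) and 1 higher in U937 (0.030). The counts called higher lie near the shares of all genes, 31.1% in MOLM-14, 23.5% in KG-1, 7.2% in HL-60 and 6.1% in U937, and 25% and 20.9% of all genes were called lower in MOLM-14 and KG-1. KLF13 rose by 1.65 in MOLM-14 and 0.66 in KG-1, and KLF7 by 1.13 and 1.85. KLF10 rose by 0.59 in MOLM-14 and fell by 0.32 in KG-1. In HL-60 KLF13 rose by 0.40 and KLF10 by 0.33. KLF2, a quiescence factor of lymphocytes, rose in MOLM-14, with 118 ± 14.4 in R406 cells, against 69.6 ± 17.9 in DMSO cells (log2 change 0.78, limma adjusted p = 0.00172). SP3 rose by 0.43 in MOLM-14 and 0.62 in KG-1.

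The transcripts of CBP and p300, the proteins that CITED2 binds, rose in MOLM-14, where CITED2 fell, and in KG-1, where it was not called. Of 11 measured CITED and CBP/p300 genes, 7 were called higher and 1 lower in MOLM-14 (median 0.38), 4 higher in KG-1 (0.075), 2 higher in HL-60 (0.029) and 1 higher in U937 (0.051). Of all genes, 31.1% were called higher in MOLM-14, 23.5% in KG-1, 7.2% in HL-60 and 6.1% in U937, with 25% lower in MOLM-14. CREBBP rose by 0.85 in MOLM-14, 1.10 in KG-1 and 0.45 in HL-60 (limma adjusted p = 0.00151), where CITED2 was not called either. EP300 rose by 0.79 in MOLM-14 and 0.79 in KG-1. HIF1A, the hypoxia factor, rose by 0.22 in MOLM-14, 0.60 in KG-1 and 0.38 in HL-60, and ARNT, its partner, by 0.69 in MOLM-14 and 0.80 in KG-1.

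**Figure D4:**
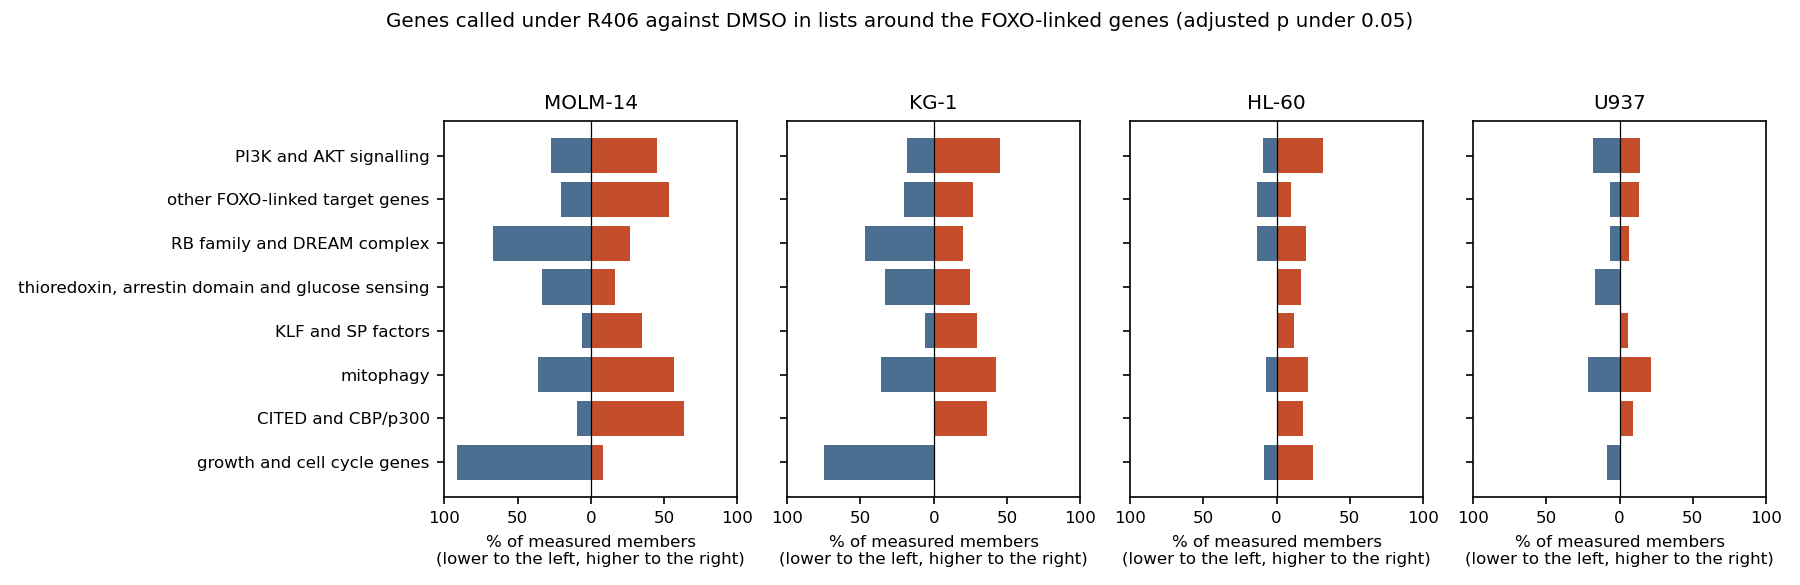
Share of the measured members of 8 gene lists called higher (red, to the right) or lower (blue, to the left) under R406 against DMSO in each line, in percent. The growth and cell cycle list reaches furthest to the left, with 11 of 12 genes in MOLM-14 and 9 of 12 in KG-1.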

How the data were processed

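RNA of 24 samples of 4 leukemia cell lines was measured on Affymetrix HT U133 arrays (A set). The deposited values are probe set intensities on a linear scale, made by the authors with RMA per the submitters' processing notes, version not given in the sources used here. RMA usually corrects background, normalizes arrays by quantiles and summarises probes. Such normalization removes shifts shared by most genes. RNA was extracted with Qiagen RNeasy columns and labelled with biotin per the labels' protocols. Scan dates, batches and detection calls were not used here, and precision is limited by how many arrays there are.

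The table holds 22277 probe sets. Left out were 62 controls, 1923 sets without a listed symbol and 568 whose annotation names several genes. The rest covers 12165 genes, 4505 of them by more than 1 probe set. The set with the highest mean log2 level stood for a gene. All 10 genes were measured, with no filter on dim values. One mean per group was fitted to log2(intensity + 1) with lmFit and eBayes of limma 3.58.1, run in R 4.3.3, with 16 residual and 5.47 prior degrees of freedom, and differences between lines were tested as contrasts and moderated F tests. RNA integrity ratios were compared with exact permutation tests. On simulated data with 12165 genes, tested per line, 1.5-fold changes were recovered in 80.6% to 86.6% and 2-fold changes in 97% to 100% of cases, and 2.6% to 6.96% of calls were false. Each recovery rate rests on 66 or 67 changed genes in a line. Far fewer genes were changed there than were called in the data, and the noise was independent between genes, so the rates in the data may differ.

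The 10 genes, the lists around them and the markers were chosen with earlier results of these data known. Named genes are the 10, up to 4 genes of each list with the smallest p of an R406 effect over the lines, a few regulators by name, and for each of the 10 the most alike gene by Pearson correlation over the 24 arrays. Some further genes of the lists were named after their values were seen, as given above. Labels share replicate numbers between treatments, but the deviations of same-numbered R406 and DMSO arrays did not move together, so no pairing was used. Alternatives were other scalings, pseudocounts, probe set rules, a filter on dim genes, array weights, fits per line, a replicate block and leaving out each array. Promoters come from RefSeq, GRCh38.p14.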

Additional observations from a re-analysis of the deposited data

Results flagged for a closer look

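The R406 effect differed between the 4 lines for each of the 10 genes in limma's moderated F test of the difference itself, which 54.8% of all genes passed. The limma adjusted p of this difference was 5.29e-12 for TXNIP, which fell in HL-60 and rose in the other 3 lines. It was 9.73e-10 for PIK3IP1, 6.35e-09 for CCNG2, 1.59e-07 for PINK1 and 2.1e-07 for FOXO3. For RBL2 it was 4.35e-07, for KLF6 5.95e-07, for IRS2 8.92e-07 and for FOXO1 0.000109. CITED2 had the weakest evidence, at 0.0103. No explanation for these differences was tested.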

How the results depend on the processing

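Over all alternatives, 1690 values were computed for 50 results on the 10 genes. Of these, 1665 kept their side of the threshold, with no change of direction where either fit was called. Results called in neither fit are counted among them even where their direction changed. FOXO1 in HL-60, for example, was 0.019 and ran from -0.11 to 0.17 over the alternatives without ever being called. The count of the 10 genes called in U937 was 4, and 2 with median centring and 2 to 4 when single arrays were left out. It was 2 without U937 DMSO replicate 2, U937 R406 replicate 1 or U937 R406 replicate 2. Over all genes in U937, array weights gave 1311 called higher and 1099 lower, against 742 and 660, and leaving out single arrays gave 428 to 791 lower, with 434 without U937 R406 replicate 1 and 428 without replicate 3. Of the U937 calls, 52.9% were higher, against 40.8% with median centring and 49% after quantile normalization. KLF6 changed direction with probe sets that avoid shared transcripts, which leave its dim set, at -0.030 in U937, -0.071 in HL-60, -0.12 in KG-1 and -0.037 in the mean, none called. In MOLM-14 that set gave 0.076. IRS2 in HL-60 was called with array weights (adjusted p = 0.0176) and from its own 6 arrays (0.0260), and CITED2 in the mean of the lines from the mean of its probe sets (-0.14, adjusted p = 0.0220). The cause was not tested for any of these. With a replicate block, PINK1 in U937 was 0.32 and no longer called (adjusted p = 0.0602), and 3 of the 10 genes were called there. The block changed no other call of these genes, and the same-numbered arrays did not deviate together. The 3 arrays a group limit what can be said of small changes.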
